A study of Mus musculus with 2 samples.

Results

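The paired immunoglobulin-like receptors measured here are 8 genes of the Lilr, Pir, Sirp and Pilr families, out of 4331 named genes on the arrays. They are Lilrb4a, Lilr4b, Pirb, Pira1, Pira2, Sirpa, Pilra and Pilrb2. The genes were selected on ratios already seen in these data, as receptors of related families of which several stood high, so their ratios are a description and support no test. RNA of splenic CD4+ alpha beta T cells of LatY136F mice was set against that of wildtype mice on 2 two-colour arrays with reversed dyes. LatY136F carries a phenylalanine in place of a tyrosine in Lat, the adaptor that links the T cell receptor to its downstream enzymes. Per the labels, splenic cells were enriched by MACS with beads against CD4 and sorted on a FACSDiva. Age, sex and number of mice, and whether the arrays shared RNA extracts, are not stated in the labels.

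Paired receptors are families in which some members restrain a cell and closely related members activate it. The inhibitory members carry immunoreceptor tyrosine-based inhibitory motifs in a long cytoplasmic tail, and these motifs recruit phosphatases such as SHP-1 and SHP-2. The activating members have a short tail and pass their signal through partner chains such as the Fc receptor gamma chain or DAP12. These families are best known from macrophages, dendritic cells, granulocytes, mast cells and, for Pirb, B cells. Lilrb4a (gp49B), Pirb (PIR-B), Sirpa (SIRP alpha) and Pilra are inhibitory. Pira1 and Pira2 (PIR-A) and Pilrb2 belong to the activating side, and Lilr4b (gp49A) is the neighbour of Lilrb4a that lacks the inhibitory motif.

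All members except Sirpa lie near relatives. For the Pir and Pilr genes, the stretches around their start sites were compared. In the RefSeq annotation (GRCm38.p6) Lilrb4a and Lilr4b are adjacent on chromosome 10 and Pirb and Pira1 on chromosome 7, with 0 protein-coding genes between them. Pilra and Pilrb2 on chromosome 5 have 1 between them, Pilrb1. Sirpa lies on chromosome 2. RefSeq windows of 300 bases (250 before the annotated start and 50 after it) were matched for 6 of the 8 members, and not for Lilrb4a and Sirpa. The windows of Pirb and Pira1 are printed because these genes differ in their ratios while the windows are 97.3% identical, with 8 differing bases in 300. They run 5′ to 3′, and capitals mark the bases that differ from the other gene of the pair.
Pirb, chr7:3720333-3720632, minus strand: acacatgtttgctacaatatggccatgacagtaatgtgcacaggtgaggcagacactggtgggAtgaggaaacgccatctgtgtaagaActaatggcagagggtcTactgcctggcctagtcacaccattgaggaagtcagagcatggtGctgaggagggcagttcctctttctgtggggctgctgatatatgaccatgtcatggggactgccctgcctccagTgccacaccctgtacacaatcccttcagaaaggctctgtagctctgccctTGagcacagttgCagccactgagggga
Pira1, chr7:3739868-3740167, minus strand: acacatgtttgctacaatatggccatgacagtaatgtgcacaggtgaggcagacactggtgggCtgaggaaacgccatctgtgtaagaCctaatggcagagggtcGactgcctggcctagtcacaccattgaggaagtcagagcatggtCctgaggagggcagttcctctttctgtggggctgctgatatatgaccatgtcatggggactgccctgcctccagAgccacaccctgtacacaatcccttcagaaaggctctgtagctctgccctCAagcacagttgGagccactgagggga

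The window of Pira2 begins 28 bases further on and matches that of Pira1 at all 272 shared bases, so it is not printed. Pilra and Pilrb2 are shown for the same reason as the first pair. Over 246 shared bases their windows were 99.2% identical, with 2 differing bases, again in capitals.
Pilra, chr5:137836229-137836474, minus strand: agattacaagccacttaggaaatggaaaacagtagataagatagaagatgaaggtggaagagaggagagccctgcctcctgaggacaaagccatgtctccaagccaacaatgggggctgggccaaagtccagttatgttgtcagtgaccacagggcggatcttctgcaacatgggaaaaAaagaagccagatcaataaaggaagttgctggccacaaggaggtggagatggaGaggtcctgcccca
Pilrb2, chr5:137871763-137872008, minus strand: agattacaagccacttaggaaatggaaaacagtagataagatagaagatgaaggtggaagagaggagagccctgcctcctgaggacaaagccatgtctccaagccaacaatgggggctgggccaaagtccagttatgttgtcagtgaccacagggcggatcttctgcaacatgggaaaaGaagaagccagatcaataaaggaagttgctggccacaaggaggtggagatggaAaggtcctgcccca

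A few short motifs were looked for on both strands of these windows. The letters GAGGAAGT, a form bound by PU.1, a transcription factor of myeloid and B cells, occurred once each in Pirb, Pira1 and Pira2. In Pirb and Pira1 they begin 120 bases before the start. Among all 32851 RefSeq windows, 3.20% hold these letters. The GATA motif AGATAA (11.2% of all windows) and the RUNX motif TGTGGT (16.8%) each occurred once in Pilra and once in Pilrb2. The STAT motif TTCNNNGAA (8.30%) was found in Lilr4b alone among the 6. None of the motifs overlaps another. Every motif found in Pirb was also found in Pira1 and Pira2, and every motif found in Pilra was also found in Pilrb2. Within each family these windows are near copies, so the shared motifs are not independent finds. The shares over all windows therefore give no measure of enrichment. A match is a description of letters, not of binding.

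Values below are log2 ratios of LatY136F over wildtype cells, centred on each array's median, and ± is 0.5 times the gap from one array to the other, a spread that may be wholly technical. The deposited ratios name no direction or log base. They were read as log10 of channel 2 over channel 1, with LatY136F RNA in channel 2 on array 1. Array 2 was turned, since the deposited columns correlated at -0.21 over all probes. The correlation bears on whether 1 array is turned, not on which. The sample titles name wildtype first for array 1 and LatY136F first for array 2. Read as first over second, they would give the opposite direction. The reading by channels is taken here as the likely direction, and under the opposite reading every sign turns. The arrays count as 1 biological comparison, so no p-value is given. The call rule asked for a ratio of at least 2-fold, in 1 direction, on each array.

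Of the 8 members, 5 were called higher in LatY136F cells and 0 lower. Over all genes 182 of 4331 (4.20%) were called higher and 42 (0.97%) lower; since the members were picked for their ratios, nothing is read from the contrast with this background. All 8 means lay above 0, with a median of 1.51 against 0.0004 over all genes. The 5 called members were Lilrb4a, Lilr4b, Pirb, Sirpa and Pilrb2, and all of them stood among the 114 highest means of the 4331 genes. The other three, Pira1, Pira2 and Pilra, had opposite signs on the arrays and therefore have no direction here. At 3-fold on both arrays, 3 members (Lilrb4a, Lilr4b and Pirb) were called, where 69 genes (1.59%) passed in all.

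**Figure D1:**
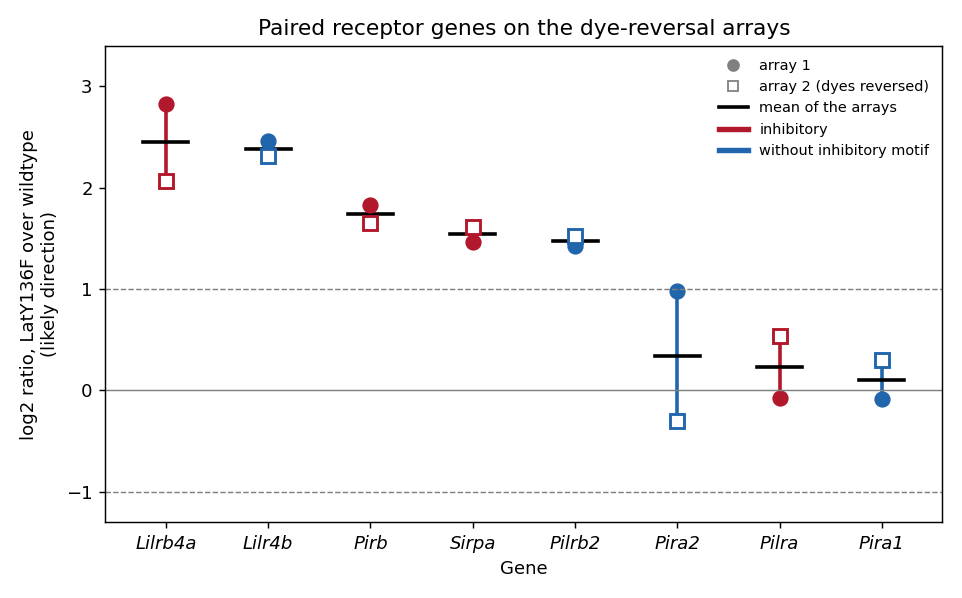
Log2 ratio of LatY136F over wildtype cells (vertical axis) for the 8 receptor genes, ordered by their mean. Circles are array 1, open squares array 2 and black bars the mean; dashed lines mark 2-fold. The 5 called genes lie above the upper dashed line on both arrays, from Lilrb4a (mean 2.45) to Pilrb2 (mean 1.47), and the other three straddle 0.

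Among the inhibitory receptors, Lilrb4a had the highest ratio. It gave 2.83 on array 1 and 2.07 on array 2, a mean of 2.45 ± 0.38 (5.46-fold higher in LatY136F cells). The deposited log10 values behind it were 0.848 and -0.616. Lilrb4a, an inhibitory receptor of mast cells and other myeloid cells, ranked 34th of all genes by its mean. Its arrays differed more than those of most genes, since 78.7% of genes had a difference at most as large.

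Pirb, which binds MHC class I molecules and restrains B cells and myeloid cells, gave 1.83 on array 1 and 1.66 on array 2. Its mean was 1.74 ± 0.09, or 3.35-fold higher, and it ranked 69th. Sirpa, the receptor through which macrophages read the CD47 signal on other cells, gave 1.47 and 1.61. That is a mean of 1.54 ± 0.07, or 2.91-fold higher. For both genes the arrays differed far less than either lay from 0.

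Pilra was the inhibitory member that was not called. It gave -0.07 on array 1 and 0.54 on array 2 (0.24 ± 0.31). The deposited log10 values, -0.0246 and -0.156, had the same sign although the dyes were reversed, so the turned ratios point opposite ways. The inhibitory receptors thus ranged in mean from 0.24 to 2.45.

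Among members without an inhibitory motif, Lilr4b stood close to its neighbour Lilrb4a. It gave 2.46 on array 1 and 2.31 on array 2, a mean of 2.39 ± 0.07 (5.23-fold higher), and ranked 39th. Pilrb2, of the Pilr family's activating side, gave 1.42 and 1.52, a mean of 1.47 ± 0.05 (2.78-fold higher). It ranked 114th, and its arrays were the closest of any member.

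The PIR-A genes behaved otherwise. Pira1 gave -0.08 on array 1 and 0.30 on array 2 (0.11 ± 0.19). Pira2 gave 0.98 on array 1, just under the 2-fold line, and -0.30 on array 2 (0.34 ± 0.64). Its deposited log10 values were 0.292 and 0.0974, of the same sign on both dye orientations. The spread between its arrays was the widest of the members, and 89.3% of all genes had one at most as wide.

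**Figure D2:**
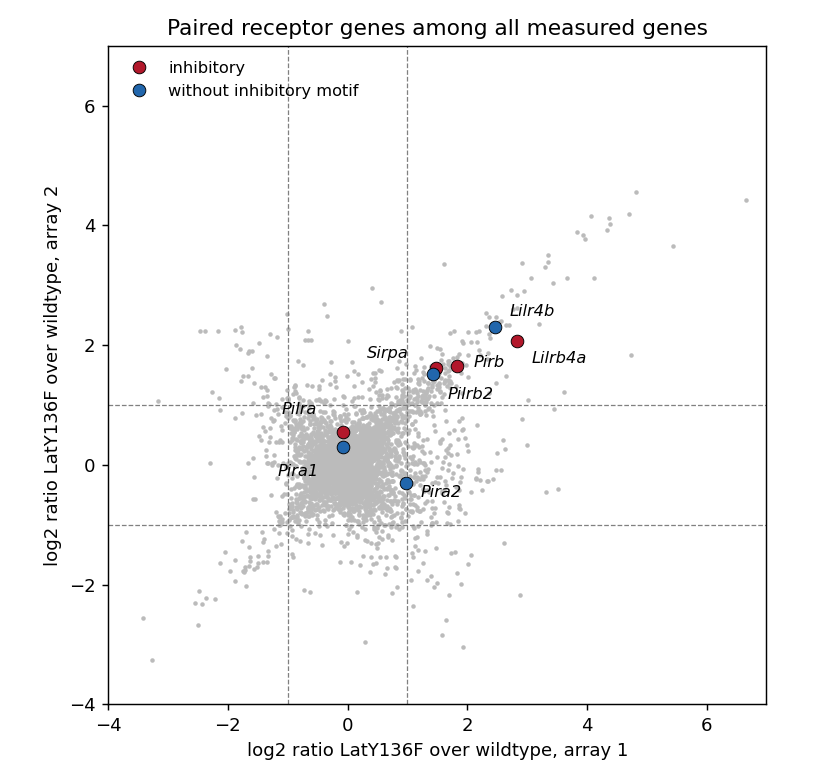
Log2 ratio of LatY136F over wildtype on array 1 (horizontal) against array 2 (vertical) for 4331 genes (grey), with the receptor genes in colour and 2-fold lines dashed. The 5 called members lie in the upper right corner where both arrays exceed 1; Pira2 lies at 0.98 and -0.30, away from the diagonal.

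Set side by side, the inhibitory members averaged 1.49 ± 0.02 and the members without the motif 1.08 ± 0.12 (4 genes each). Of the inhibitory members 3 of 4 were called higher, and of the others 2 of 4. The difference in mean, inhibitory minus activating, was 0.32 on array 1 and 0.51 on array 2, or 0.42 ± 0.10. The means of single genes overlapped almost entirely, from 0.24 to 2.45 for the inhibitory members and from 0.11 to 2.39 for the others. The size of the difference depends on where Lilr4b is placed, the neighbour of Lilrb4a without the motif. Without Lilr4b it was 0.85, and with Lilr4b among the inhibitory members it was 1.03.

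Within families the order was not uniform. Lilrb4a exceeded Lilr4b by 0.37 on array 1 and lay 0.24 below it on array 2, so the Lilr pair had no order beyond the difference between the arrays. Pirb exceeded Pira1 by 1.91 on array 1 and 1.36 on array 2, a mean of 1.64 ± 0.28. Pirb exceeded Pira2 by 0.85 and 1.96, a mean of 1.40 ± 0.55. In the Pilr family the order was the other way, with Pilra minus Pilrb2 at -1.496 on array 1 and -0.98 on array 2 (-1.24 ± 0.26). In the Pir family the inhibitory gene therefore had the higher ratio on both arrays, and in the Pilr family the activating one had it.

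Each member was measured by 1 probe. The compared windows of the Pir and Pilr genes are near copies. Transcripts were not compared and the probe sequences were not analysed here, so a probe may capture RNA of a relative. The assignment of a ratio to Lilrb4a or Lilr4b, to Pirb, Pira1 or Pira2, and to Pilra or Pilrb2 is uncertain to that extent. One further gene of these families was measured among 15 listed, Lilra6, which is also named Pira3 and is read as a PIR-A gene here. It gave 0.53 on array 1 and 0.90 on array 2 (0.72 ± 0.18), not called, and lay between Pirb and the other PIR-A genes on both arrays except for Pira2 on array 1. The genes whose ratios were nearest to those of Lilrb4a, by distance over the 2 arrays, were Anxa2 (2.79 and 2.11), Ctsg (2.70 and 2.33) and Ngp (2.66 and 2.34). Anxa2 encodes a membrane-binding protein, and Ctsg and Ngp encode neutrophil granule proteins.

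The signalling partners of these receptors were counted by the same rule. Over all genes 4.20% were called higher and 0.97% lower. With lists this short, nothing is read from counts of 0 or 1. Of 5 chains that carry activating signals, 1 was called higher, Fcer1g, the Fc receptor gamma chain that pairs with PIR-A, at 1.56 on array 1 and 1.45 on array 2 (2.83-fold by the mean). Tyrobp, which encodes DAP12, the partner of the Pilrb receptors, gave 0.92 and 1.02, just short of the 2-fold line on array 1. Of 6 measured phosphatases and associated proteins that act at inhibitory motifs, 1 was called higher, the adaptor Dok2 (2.46 ± 0.07, 5.50-fold). Ptpn6 (SHP-1) stood at -0.42 ± 0.05 and Ptpn11 (SHP-2) at 0.13 ± 0.01, or 0.31 by its probe furthest from 0. Of 7 measured kinases and signalling proteins, 0 were called higher and 1 lower, the B cell adaptor Blnk (-1.61 ± 0.09). A call on 1 array asks for less, and counts then moved. Array 2 alone gave 2 higher and 1 lower chain and 1 higher kinase or signalling protein, and array 1 alone gave 2 higher phosphatases or associated proteins.

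Among 24 measured ligand genes, 1 was called higher and 0 lower, with a list median of 0.11. Over all genes 4.2% were called higher. A count of 1 among 24 is near that share, so it is not read as a result about the ligands. The called gene was Cd47, the ligand of Sirpa, at 1.04 on array 1 and 1.43 on array 2 (1.24 ± 0.19, 2.36-fold higher). B2m, the light chain of the class I molecules that PIR-B binds, stood at 0.08 ± 0.15. Cd47 and Sirpa were both called and B2m was not, but Sirpa was selected on its ratio, so nothing is read from this pairing. On array 2 alone 2 ligand genes were higher and 3 lower, while array 1 alone gave 1 higher and 0 lower, as with both arrays.

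Other receptor groups give the frame, beside shares over all genes of 4.20% called higher and 0.97% lower. Of 12 measured genes of other paired receptor families, 2 were called higher and 2 lower, with a median of 0.06. The higher ones were the myeloid receptors Trem3 (2.70 ± 0.12, 6.51-fold) and Clec4d (1.44 ± 0.08), and the lower ones the B cell genes Cd22 (-1.59 ± 0.05) and Fcrla (-1.39 ± 0.05). Of 8 Fc receptor genes (median 0.99), Fcgr2b, the inhibitory receptor for immunoglobulin G, was called higher (1.41 ± 0.11) and Fcer2a, the low-affinity receptor for immunoglobulin E, lower (-1.14 ± 0.01). Of 20 killer cell receptor genes (median -0.28), 0 were called higher and Klrd1 was called lower (-1.75 ± 0.01). Of 7 inhibitory receptor genes of T cells (median 0.81), Ctla4 was called higher (1.10 ± 0.05). Several of these counts moved on 1 array alone. Array 1 alone gave 4 higher inhibitory receptor genes of T cells, 3 higher and 2 lower killer cell receptor genes and 3 higher Fc receptor genes. Array 2 alone gave 2 lower killer cell receptor genes and 2 higher Fc receptor genes. It also gave 4 higher and 3 lower genes of other paired receptor families.

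Markers of other cell types differed beside these receptors. Of 12 monocyte and macrophage markers 5 were called higher and 0 lower, with means from -0.45 to 2.73 and a median of 1.20. Mrc1 (2.73 ± 0.11), C1qc (2.48 ± 0.08), Lyz1 (2.27 ± 0.09, a near copy of Lyz2) and Adgre1 (1.49 ± 0.17) led them. Array 1 alone called 6 of the 12 higher and array 2 alone 7. Of 6 neutrophil markers 3 were called higher (Il1r2 at 3.62 ± 0.50, Lcn2 at 3.14 ± 0.22 and Ngp at 2.50 ± 0.16), with a median of 1.71. Array 2 alone called 4 of the 6 higher. Of 4 mast cell, basophil and eosinophil markers 0 were called, though their median was 1.08, with Ms4a2 at 1.20 ± 0.23 and Fcer1a at 1.16 ± 0.83; array 1 alone called 1 of them higher and array 2 alone 2.

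The B cell markers went the other way. Of 9 B cell markers 6 were called lower and 0 higher, with means from -2.29 to -0.21 and a median of -1.59. Cd79b (-2.29 ± 0.18), Cr2 (-1.76 ± 0.29) and Cd72 (-1.73 ± 0.14) led them. Array 1 alone called 7 of the 9 lower. The lists overlap, and Cd22, Fcer2a and Blnk, named above in other lists, are among these 6 called B cell markers. Of 7 dendritic cell markers (median 0.08), Cst3 was called higher (1.19 ± 0.05) and Ly6d lower (-1.32 ± 0.07). Of 4 natural killer cell markers (median -0.33), Klrd1, the same gene as among the killer cell receptors, was called lower. Array 1 alone gave 1 higher and array 2 alone 2 lower. Of 9 T cell markers 0 were called (median -0.08, from Cd247 at -0.88 ± 0.46 to Cd5 at 0.81 ± 0.11), though array 2 alone called 1 lower. Chains of CD8, the co-receptor of killer T cells, were looked at after their values were known. Cd8b1 was called lower, at -2.21 on array 1 and -2.24 on array 2, and Cd8a was not called (-0.63 ± 0.16). The table holds ratios only, so no marker's level in either kind of cell is known and the labelled cell type could not be checked. Different numbers of a cell type and different RNA per cell cannot be told apart, and the part of other cells in the receptor ratios was not tested.

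**Figure D3:**
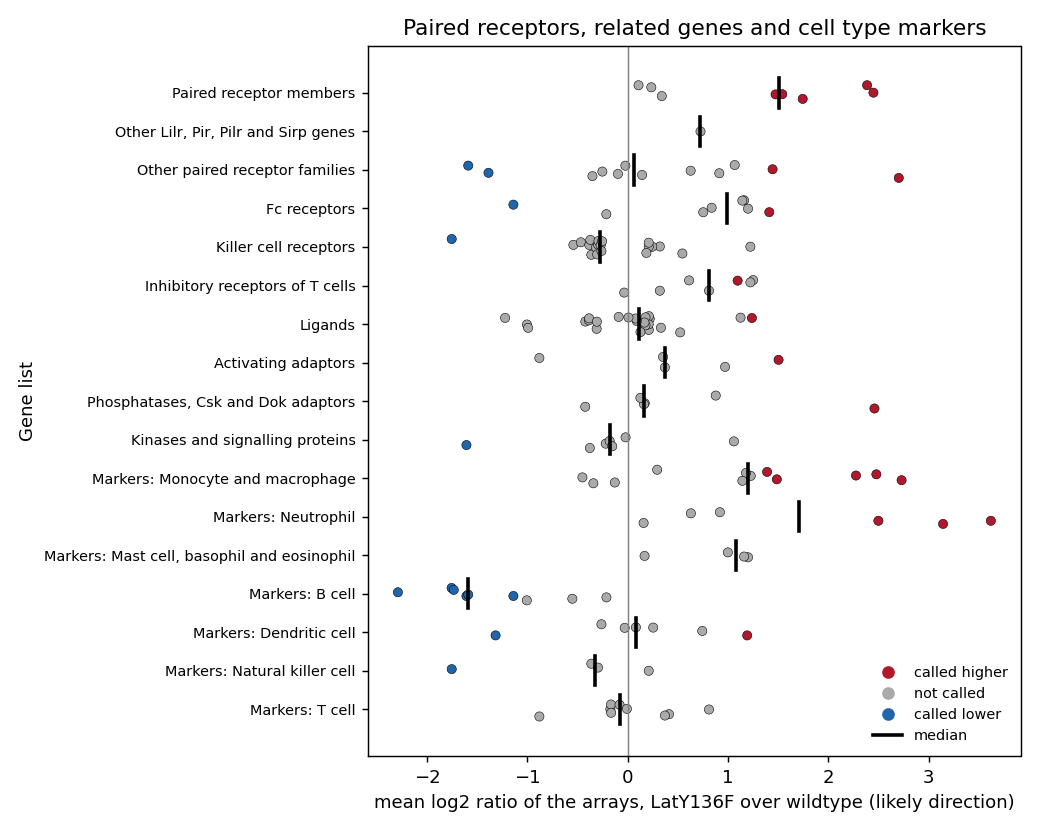
Mean log2 ratio of LatY136F over wildtype (horizontal axis) for the receptor members, for lists of related genes and for cell type markers. Each point is a gene, red where called higher, blue where called lower and grey where not called; black bars are medians. The members' median was 1.51, that of the monocyte and macrophage markers 1.20 and that of the neutrophil markers 1.71. B cell markers lie at the far left. Members and lists were chosen with values known, so nothing is read from how these medians compare.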

How the data were processed

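Per the labels, RNA of LatY136F and wildtype cells was hybridised on 2 arrays forming a dye-reversal pair. The deposited table holds a log ratio for each of 8014 probes on each array, read as log10 because the highest value is exactly 2, a 100-fold limit; base, direction, scanner and normalization are not given in any source used. In the deposited log10 scale the median of array 1 was -0.0033 and that of array 2 was 0.0070. Signals were not analysed, so the precision of single ratios is unknown and the number of arrays limits it.

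The values were converted to log2 (factor 3.32), array 2 was turned, arrays were centred on their medians and probes of a gene averaged (Python 3.11.15, pandas 2.3.3). Of the probes 4654 had 1 gene symbol in the platform annotation, 73 several and 3287 none, and only the first kind was used. Windows were aligned with Biopython 1.88, with free end gaps. The calling rule was tested on simulated data. The members, lists and tests were chosen with earlier results of these data known. Named were all members, up to 4 called genes per list (or 2 where none was called), direct partners of the receptors, and the 3 genes nearest to Lilrb4a. No test of LatY136F against wildtype was made, as the arrays count as 1 comparison. Alternatives changed centring, scale, probe choice, arrays, log base, sign, threshold and the class of Lilr4b.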

Additional observations from a re-analysis of the deposited data

How the results depend on the processing

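The same 5 members were called higher without centring, with the arrays scaled alike and without probes at exactly 0. These settings hardly changed the values, so the calls could hardly change. Pilrb2, the called member with the lowest mean (1.47), stood at 1.46, 1.47 and 1.48 under them. Each member has 1 probe, so using the probe furthest from 0 could not change their calls. The same 5 were also called on either array alone, at 1.5-fold and with 2-fold on the mean. Those settings ask for less than the main rule, so the 5 had to pass. Only the absence of further members could have come out otherwise. At 3-fold 3 were called. Read as log2, 0 members and 13 genes were called higher and 0 genes lower. With the sign turned, 0 members were higher and 5 lower, at -2.45 (Lilrb4a), -2.39 (Lilr4b), -1.74 (Pirb), -1.54 (Sirpa) and -1.47 (Pilrb2), and all genes gave 42 higher and 182 lower. By construction of the threshold, 339 genes were higher and 127 lower at 1.5-fold, and 69 and 19 at 3-fold. On 1 array alone, 341 to 408 genes passed as higher and 145 to 151 as lower, as that array then suffices. The difference inhibitory minus activating (0.42) was 0.85 without Lilr4b, 1.03 with it among the inhibitory members, 0.74 by medians, 0.13 read as log2 and -0.42 with the sign turned. Chosen after seeing the data, adding Lilra6 to the activating members gave 0.49. For 33 named genes of the lists, 198 alternatives were added later (centring, scale, probe choice, single arrays, probes at 0). Turned sign and log2 reading were not among them. By these alternatives 3 values moved by at least the standard deviation of the arrays. A single array could not move a value under that rule, since its distance from the mean is always smaller. Probe choice could not move a gene with 1 probe either. The count of 3 is therefore no measure of stability. Of 192 such alternatives for list counts, 18 moved the count from 0 or by more than 1.5-fold, all on 1 array alone. Smaller changes were not counted as moved and also came only on 1 array alone. An example is the monocyte and macrophage markers called higher, from 5 to 7 on array 2. No paired analysis was possible because the arrays were counted as a single comparison with no other group. A filter on dim probes was not run, as the table holds no signals.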
